A study of Drosophila melanogaster with 6 samples.

Results

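The genes described here encode subunits of the 26S proteasome. They were taken by symbol, as every FlyBase identifier in the files whose symbol begins with Prosalpha, Prosbeta, Rpn or Rpt followed by a digit. Of the 48 genes with such a symbol in the gene name table, 31 had values among the 11922 identifiers of the files, and the others were not analysed here. These 31 comprise 20 standard subunits and 11 paralogues, whose symbols go on with R or T. RNA came from heads of Oregon-R wild-type female flies 5 d of age. One group of 3 samples was fed with normal diet (ND), and the other group of 3 samples was fed with high-fat diet (HFD), which is ND with coconut oil added, for 5 d. The flies were virgin females, and the diet was the only stated difference between the groups. The study describes its samples as biological replicates, each pooled from many flies and taken from heads together with tissue attached to them. The labels do not say whether the pools of a diet came from separate cultures, so the p-values measure the spread between these pools.

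The proteasome degrades proteins that carry ubiquitin chains. Its core particle is a barrel of outer alpha rings, which form the gate, and inner beta rings, which hold the proteolytic sites. The regulatory particle has a base, whose Rpt ATPases unfold substrates and thread them into the core, and a lid, whose Rpn subunits hold the particle together and remove ubiquitin. Many fly subunits have a second gene copy that is used mainly in the male germline. The study asked whether the AKH receptor is broken down less in HFD-fed flies, and the proteasome was one of the routes it considered. In cultured S2 cells it found little effect of a proteasome inhibitor on the receptor protein, whereas lysosome inhibitors raised it. It also reports that starvation and rapamycin, which induce autophagy, lowered the receptor protein in these cells. In flies it reports that HFD lowered a measure of autophagy in neurons with the receptor. Knock-down of autophagy genes in those neurons raised the receptor protein in ND-fed flies. The study proposes that the receptor is broken down mainly through the lysosome, by autophagy. The values below are mRNA levels and do not measure protein breakdown.

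Values are FPKM, fragments counted per kilobase of transcript and scaled to the mapped total of the library, so that levels can be compared between genes. The files give no totals, but low values rose in steps of what 1 fragment is worth, and with annotated transcript lengths these steps gave an estimated depth between 5.29 M fragments in HFD replicate 2 and 11.77 M in HFD replicate 3. By this estimate each value of a standard subunit rests on 227 to 1813 fragments, which is a counting error of 6.64% at the lower end and 2.35% at the upper end. Eye and neuron markers were present in all samples, with a summed level of 20939 to 29822 FPKM over the 9 of 10 listed genes in the files. A pair of samples stood apart. The 12 listed midgut genes, which encode digestive enzymes, summed to 73.7 FPKM in ND replicate 3 and 7439 FPKM in HFD replicate 2, against 16275 to 24992 FPKM in the others. The 13 heat shock genes summed to 544, 563 and 974 FPKM in ND replicates 1, 2 and 3. In HFD replicates 1, 2 and 3 they summed to 444, 398 and 516 FPKM. ND replicate 3 was thus the highest, and every HFD sum lay below every ND sum. The largest part of each sum was Hsp83, at 378, 396 and 575 FPKM on ND and 280, 229 and 340 FPKM on HFD. Of the 12 heat shock genes tested, 2 had all HFD samples below all ND samples, and in the others the diets overlapped. Of all tested genes, 8.07% had all HFD samples below all ND samples. The difference of these sums between the diets was not tested. Across all tested genes, correlations of log2 values with the other samples were 0.842 to 0.920 for ND replicate 3, which is a description over genes that are not independent replicates.

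All 20 standard subunits that had values were expressed in every sample, within a narrow range of levels. Their means over the 6 samples ran from 40.3 FPKM for Rpn2 to 81.3 FPKM for Prosalpha1, which is a factor of 2.01, with a median of 53.8 FPKM. Over all 8362 tested genes, which are those with a mean of at least 0.5 FPKM, the median level was 14.4 FPKM, and 78.6% of them had a lower mean than Rpn2. Within a single sample, the highest of the 20 subunits was 1.86 to 2.32 times the lowest, and Rpn2 was the lowest in all 6 samples. The 20 genes lie on 5 chromosome arms, with 7 on 2R, 6 on 3R, 3 on 3L, 2 on 2L and 2 on X. Of the 20, 10 overlap another annotated gene, and the sources used here do not say that counting used the strand.

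**Figure D1:**
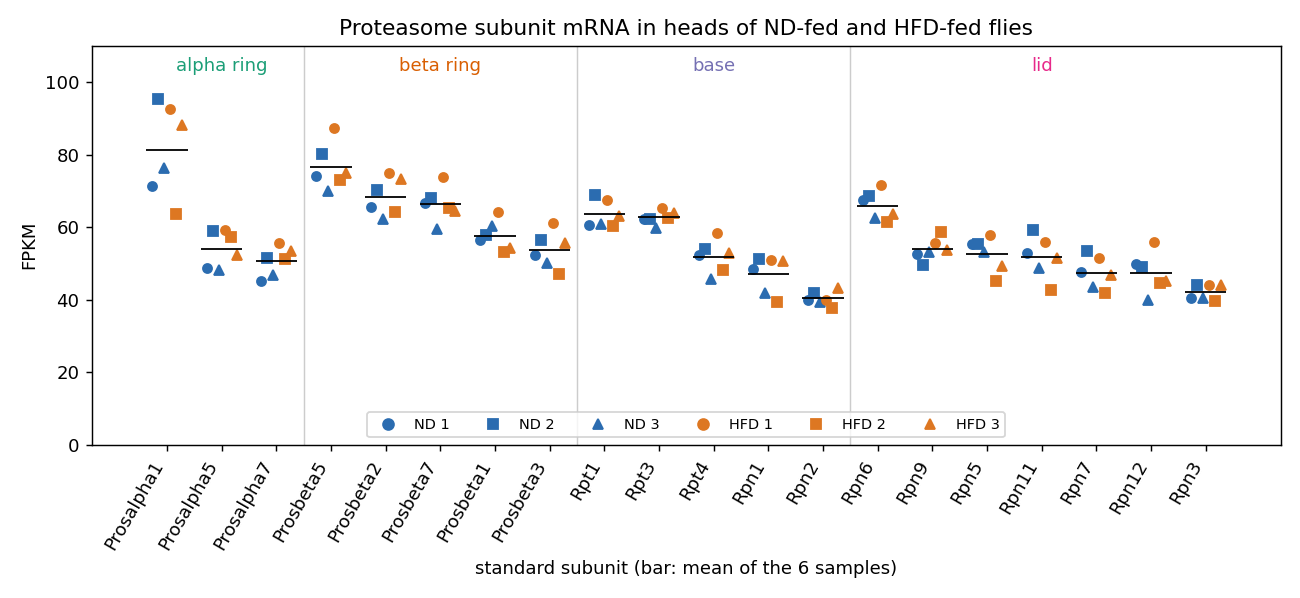
FPKM of the 20 standard subunits, ordered by sub-complex and by mean level, with 1 point per sample (blue for ND, orange for HFD, the shape for the replicate) and a bar at the mean of the 6 samples. The means lie between 40.3 and 81.3 FPKM, and the ranges of both diets overlap for all but Rpt3 and Rpn9.

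In the alpha ring, 3 of the standard subunits had values. Prosalpha1 was at 71.3, 95.4 and 76.5 FPKM in ND replicates 1, 2 and 3 and at 92.6, 63.6 and 88.3 FPKM in HFD replicates 1, 2 and 3. It was the highest of all standard subunits on average and also the most variable, with a coefficient of variation over the 6 samples of 15.7%. Prosalpha7 was the lowest of the ring, with 45.1, 51.4 and 46.9 FPKM on ND and 55.6, 51.1 and 53.4 FPKM on HFD. Only ND replicate 2 reached into the range of the HFD samples. Prosalpha5 was at 48.6, 59.1 and 48.2 FPKM on ND and at 59.1, 57.1 and 52.3 FPKM on HFD, where again ND replicate 2 lay among the HFD samples and the other ND samples lay below them.

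In the beta ring, 5 subunits had values, among them the 3 with proteolytic sites. Prosbeta5, which carries the chymotrypsin-like site, was the highest of the ring with 74.2, 80.3 and 70.0 FPKM on ND and 87.5, 72.9 and 74.9 FPKM on HFD. Prosbeta2, with the trypsin-like site, averaged 66.0 ± 3.98 FPKM in ND flies and 70.8 ± 5.86 FPKM in HFD flies (mean ± SD of 3 samples each, here and below). Prosbeta1, with the caspase-like site, averaged 58.3 ± 1.92 and 57.1 ± 6.10 FPKM. The order Prosbeta5 over Prosbeta2 over Prosbeta1 was the same in all 6 samples. Prosbeta3 and Prosbeta7 have no active site. Prosbeta3 was the lowest of the ring, with 52.2, 56.5 and 50.1 FPKM on ND and 61.0, 46.96 and 55.7 FPKM on HFD, so that HFD held both its highest and its lowest sample.

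In the base, the 3 measured ATPases and both measured scaffold subunits differed in level. Rpt1 was the highest by the mean of the 6 samples, with 60.7, 68.9 and 60.9 FPKM on ND and 67.4, 60.3 and 63.1 FPKM on HFD. Rpt3 was the steadiest gene among the 20, with a coefficient of variation of 2.92% and values of 62.3, 62.3 and 59.8 FPKM on ND and 65.3, 62.6 and 64.0 FPKM on HFD. Rpt3 lay above Rpt1 in ND replicate 1 and in HFD replicates 2 and 3, so the order of both was not fixed. Rpt4 averaged 50.6 ± 4.32 FPKM in ND flies and 53.1 ± 5.13 FPKM in HFD flies. Rpn1 and Rpn2, the large scaffold subunits that bind ubiquitin receptors and substrates, were lower. Rpn2 was at 39.9, 41.8 and 39.3 FPKM on ND and 40.0, 37.8 and 43.3 FPKM on HFD, and Rpn1 averaged 47.1 ± 4.75 and 46.9 ± 6.62 FPKM.

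In the lid, 7 subunits had values. Rpn6, which clamps the lid to the core, was the highest with 67.4, 68.7 and 62.6 FPKM on ND and 71.7, 61.4 and 63.7 FPKM on HFD. Rpn3 was the lowest with 40.4, 44.1 and 40.4 FPKM on ND and 44.1, 39.7 and 44.0 FPKM on HFD. Rpn11, the metalloprotease that removes ubiquitin chains, was at 52.9, 59.1 and 48.6 FPKM on ND and 55.8, 42.6 and 51.6 FPKM on HFD, with its lowest value in HFD replicate 2. Rpn5 was at 55.2, 55.2 and 53.1 FPKM on ND and 57.7, 45.2 and 49.4 FPKM on HFD. Rpn7 was at 47.7, 53.4 and 43.5 FPKM on ND and 51.5, 41.9 and 46.9 FPKM on HFD. Rpn5 and Rpn7 are structural subunits, and in both, as in Rpn11, HFD replicate 2 was low while HFD replicate 1 lay at or near the top. Rpn9 showed another order, with 52.6, 49.5 and 53.1 FPKM on ND and 55.7, 58.7 and 53.7 FPKM on HFD, so that HFD replicate 2 was its highest sample. Rpn12 averaged 46.2 ± 5.41 FPKM in ND flies and 48.6 ± 6.28 FPKM in HFD flies.

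The core subunits that had values were on average higher than the base and lid subunits that had values. This did not hold for each core subunit. Prosalpha5, Prosalpha7 and Prosbeta3 averaged 54.1, 50.6 and 53.8 FPKM over the 6 samples. Rpt1, Rpt3 and Rpn6 averaged 63.6, 62.7 and 65.9 FPKM. The core mean also includes Prosalpha1, the highest subunit, which is taken up below together with Prosalpha1R. The mean of the 8 core subunits divided by the mean of the 12 base and lid subunits was 1.14, 1.23 and 1.21 in ND replicates 1, 2 and 3 and 1.27, 1.22 and 1.23 in HFD replicates 1, 2 and 3. It averaged 1.19 ± 0.0442 and 1.24 ± 0.0228, and the diets overlapped. Base and lid were close to each other, with a ratio of their means between 1.01 and 1.08.

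The subunits moved together from sample to sample, and these shifts did not follow the diet. On the log2 scale the 20 subunits deviated from their own means by an average of -0.026, 0.075 and -0.093 in ND replicates 1, 2 and 3 and by 0.13, -0.10 and 0.015 in HFD replicates 1, 2 and 3. HFD replicate 1 held the highest value for 12 of the 20 subunits and ND replicate 2 for 6. HFD replicate 2 held the lowest value for 11 and ND replicate 3 for 7. Such counts were not made over all tested genes. So the samples with the highest and with the lowest levels each came from both diets. Removing the average deviation of each sample took the median SD of a subunit over the 6 samples from 0.11 to 0.074 on the log2 scale. Prosalpha1 in HFD replicate 2, at -0.34, and Rpn9 in the same sample, at 0.13, were the extremes of the deviations in that sample.

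**Figure D2:**
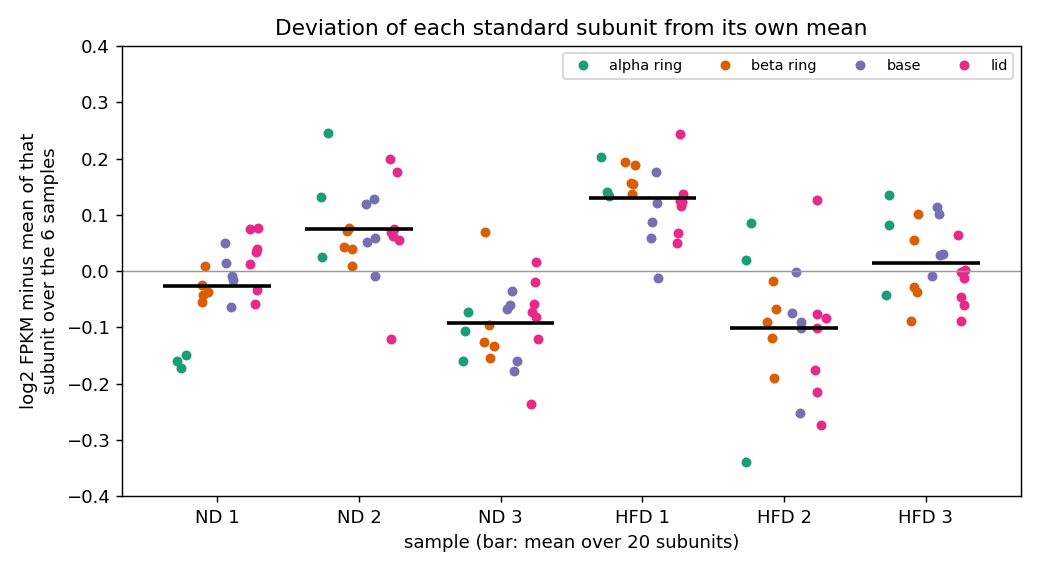
Deviation of each of the 20 standard subunits from its own mean over the 6 samples, on the log2 FPKM scale, with 1 point per subunit and sample coloured by sub-complex and a bar at the mean over the 20 subunits. The bars are highest in HFD 1 (0.13) and ND 2 (0.075) and lowest in HFD 2 (-0.10) and ND 3 (-0.093), so that both diets hold a high and a low sample.

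The 2 samples with the lowest subunit levels, ND replicate 3 and HFD replicate 2, are also those with the least midgut RNA, at 73.7 and 7439 FPKM in sum. In ND replicate 3 the median of all tested genes deviated from the gene means by 0.097, opposite to the subunits. In the other samples this median lay between -0.035 (HFD replicate 3) and 0.0041 (HFD replicate 2). With samples rescaled by the median ratio of genes, all 20 subunits were below their mean in ND replicate 3 and 16 of them had their lowest value there. In bulk RNA, fewer cells of a type and less RNA per cell cannot be told apart, and the part of midgut RNA in the deviations was not tested.

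Between the diets, no proteasome gene passed the test. Differences were estimated with limma on log2(FPKM + 1) for the 8362 genes, with p-values adjusted over all of them, and 24 of the 31 proteasome genes were tested, namely the 20 standard subunits and 4 paralogues. None of the 24 had an adjusted p under 0.05 from limma, where 0.0478% of all tested genes did, and none had an unadjusted p under 0.05, where 6.71% of all tested genes did. The methods of the study name a rule of p under 0.05 together with a change past 2-fold, but no test for that p. With the unadjusted limma p and the ratio of means, 1.11% of all tested genes met such a rule. It follows from the above that none of the 24 did. The lowest adjusted p from limma among the 24 was 0.833. With 3 samples against 3 the exact permutation test cannot give a p under 0.1, so it could not pass the threshold for any single gene.

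The differences of the standard subunits were small. The log2 difference (HFD minus ND) of the 20 subunits ran from -0.11 for Rpn5 to 0.16 for Prosalpha7, with a median of 0.034, and the median over all tested genes was -0.027. Of the 20, 12 were above 0 and 8 below. The 95% confidence intervals of the 20 differences together span a fold of 0.731 to 1.37 between the diets, and without Prosalpha1 a fold of 0.746 to 1.31. A change of any standard subunit to 2-fold up or down lies outside its interval. By sub-complex the median log2 difference was 0.12 for the alpha ring, 0.065 for the beta ring, 0.0030 for the base and -0.015 for the lid. The direction of the median over the 20 rested on single libraries, since it was -0.0059 without ND replicate 3 and -0.024 without HFD replicate 1.

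**Figure D3:**
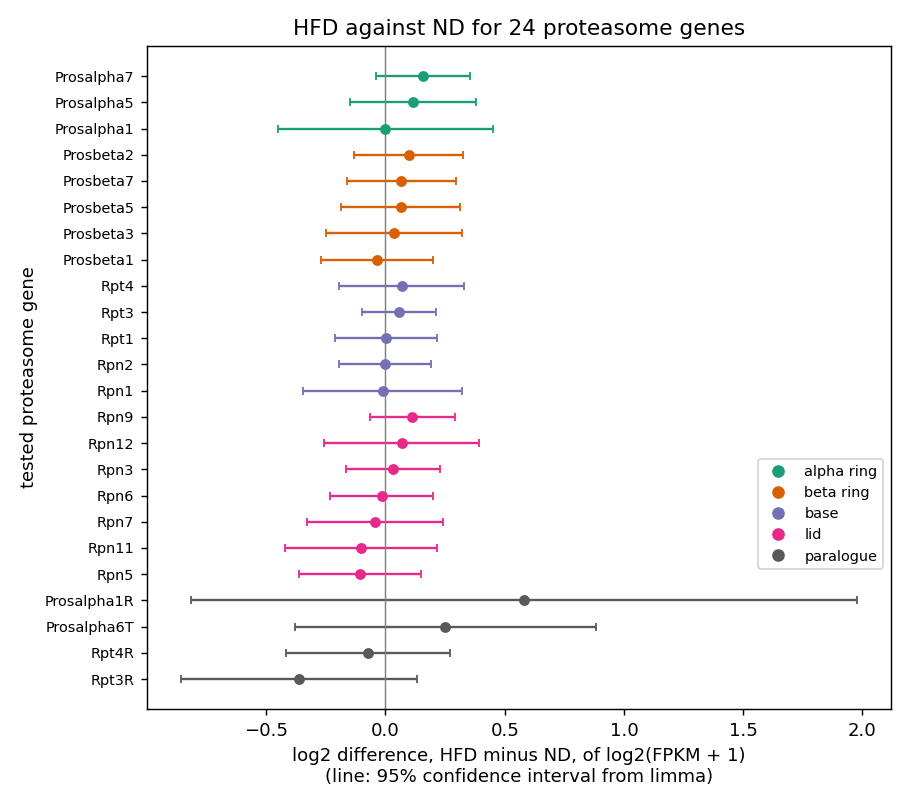
Log2 difference (HFD minus ND) of log2(FPKM + 1) for the 24 tested proteasome genes, coloured by sub-complex, with the 95% confidence interval from limma as a line. All intervals include 0, those of the 20 standard subunits stay between -0.45 and 0.45, and that of Prosalpha1R reaches from -0.82 to 1.98.

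The 3 largest log2 differences among the standard subunits were those of Prosalpha7, at 0.16 (SE 0.080, adjusted p = 0.833 by limma), Prosalpha5, at 0.12, and Rpn9, at 0.11. The 3 lowest were those of Rpn5, at -0.11 (SE 0.10, adjusted p = 0.959 by limma), Rpn11, at -0.10, and Rpn7, at -0.043. In 2 standard subunits, Rpn9 and Rpt3, the HFD samples all lay above the ND samples, which was so for 4.54% of all tested genes. The smallest gap was narrow in both, between 53.1 and 53.7 FPKM for Rpn9 and between 62.3 and 62.6 FPKM for Rpt3. For each of them the exact permutation test gave p = 0.1, the smallest it can give. In no standard subunit did all HFD samples lie below the ND samples, against 8.07% of all tested genes.

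Prosalpha1 and Prosalpha1R need to be read as a pair. In the BDGP6.54 annotation Prosalpha1 (FBgn0263121) lies on the minus strand of chromosome arm 2R from 7827303 to 7828678, and Prosalpha1R (FBgn0050382) lies on the same strand from 7830413 to 7831771, with 1734 bases between them. Each has 4 exons per transcript, and the last 3 exons of both genes have the same lengths of 100, 177 and 580 bases. The genome build of the files is not given in the sources used here. Prosalpha1R was at 19.4, 5.30 and 12.005 FPKM in ND replicates 1, 2 and 3 and at 17.1, 29.8 and 9.01 FPKM in HFD replicates 1, 2 and 3. Its highest value was in HFD replicate 2, where Prosalpha1 was lowest, and its lowest in ND replicate 2, where Prosalpha1 was highest. Its share of the sum of both genes ran from 5.27% in ND replicate 2 to 31.9% in HFD replicate 2.

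The sum of both genes was 90.7, 100.7 and 88.5 FPKM on ND and 109.7, 93.4 and 97.3 FPKM on HFD. Its coefficient of variation was 8.0%, against 15.7% for Prosalpha1 and 56.5% for Prosalpha1R, and it had its highest value in HFD replicate 1 and its lowest in ND replicate 3. These are the samples that stood at the top and near the bottom for the other subunits. HFD replicate 2, which had the lowest average deviation of the subunits, lay above ND replicates 1 and 3 in the sum. The study kept reads that mapped to 1 place, and how alike the sequences of both genes are was not computed here, so the split of reads between them is uncertain. The log2 difference of Prosalpha1R was 0.58 (SE 0.57, adjusted p = 0.960 by limma), and that of Prosalpha1 was -0.00015. The value of Prosalpha1R rested on single libraries, since it was 0.12 without ND replicate 2, 0.18 without HFD replicate 2, 0.97 without ND replicate 1 and 0.99 without HFD replicate 3. The sum averaged 93.3 ± 6.49 FPKM in ND flies and 100.1 ± 8.51 FPKM in HFD flies, and it was formed after the values had been seen.

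**Figure D4:**
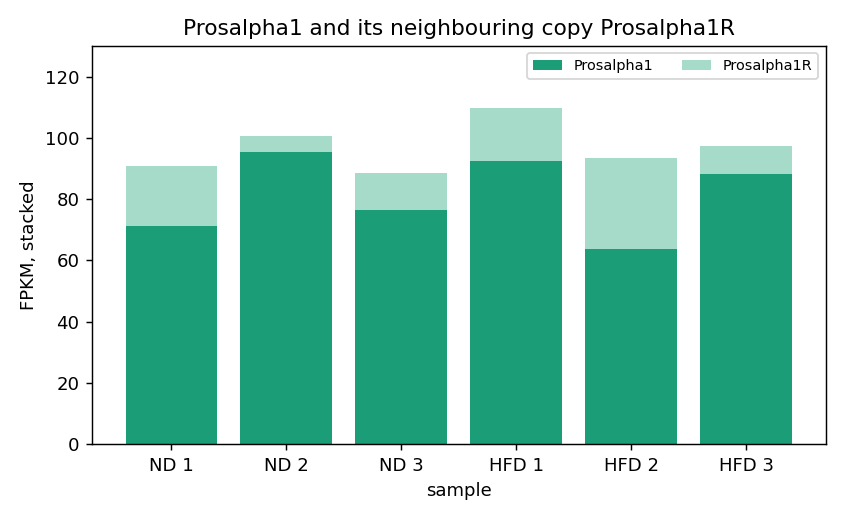
FPKM of Prosalpha1 (dark) and Prosalpha1R (light) stacked for each of the 6 samples. The share of Prosalpha1R ranges from 5.27% in ND 2 to 31.9% in HFD 2, while the height of the stack stays between 88.5 and 109.7 FPKM.

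The other paralogues were low in these female heads, and except for Rpt4R none had a mean of 1 FPKM or more. Of the 11 paralogues, 5 are listed at 0 in all 6 samples. These are Prosbeta2R1, Prosbeta4R1, Prosbeta4R2, Rpn12R and Rpt6R. A further 2 had some value above 0 but a mean under 0.5 FPKM and were not tested. Prosalpha3T is listed at 0.152 FPKM in ND replicate 1, at 0.0706 FPKM in ND replicate 3 and at 0 elsewhere. Prosbeta2R2 is listed at 0 in ND replicate 3 and HFD replicate 1 and lay between 0.256 and 0.455 FPKM in the others, which is at most 0.709% of Prosbeta2. Markers of the testis were also at or near 0. Of the 12 listed testis genes in the files, 8 are at 0 in all samples, and their sum was 0.261 to 3.34 FPKM.

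Rpt4R, a copy of the ATPase gene Rpt4, was the most constant of the paralogues. It was at 2.65, 1.82 and 2.00 FPKM on ND and 2.05, 1.94 and 1.96 FPKM on HFD, which is 3.37% to 5.07% of Rpt4, from an estimated 14 to 35 fragments per sample. Its log2 difference was -0.073 (limma, adjusted p = 0.998), and it was 0.037 without ND replicate 1 and -0.15 without ND replicate 2. Prosalpha6T, the male germline copy of an alpha subunit, was at 0.204, 0.815 and 0.287 FPKM on ND and at 1.08, 0.370 and 0.665 FPKM on HFD. With the estimated depths and its 1020-base transcript these values correspond to 1.98, 6.77 and 3.01 fragments and to 9.83, 1.99 and 7.99 fragments. The diets overlapped, and the difference of log2(FPKM + 1) was 0.25 (SE 0.26, adjusted p = 0.965 by limma), where the ratio of the means was 1.62. It was 0.66 with a pseudocount of 0.1, and leaving out 1 sample gave 0.097 (without HFD replicate 1) to 0.43 (without ND replicate 2), with 0.14 without ND replicate 1 and 0.40 without HFD replicate 2.

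Rpt3R, a copy of the ATPase gene Rpt3, had the most negative log2 difference of the 24 tested genes. It was at 0.591, 0.778 and 1.17 FPKM in ND replicates 1, 2 and 3 and at 0.475, 0.235 and 0.587 FPKM in HFD replicates 1, 2 and 3. All HFD samples lay below all ND samples, but ND replicate 1 and HFD replicate 3, at 0.591 and 0.587 FPKM, were nearly equal. The means were 0.846 ± 0.295 and 0.432 ± 0.180 FPKM, a ratio of 0.511. The difference of log2(FPKM + 1) was -0.36 (SE 0.20, adjusted p = 0.866 by limma), and it was -0.85 with a pseudocount of 0.1, -0.24 without ND replicate 3 and -0.14 without both ND replicate 3 and HFD replicate 2. The exact permutation p was 0.1. The gene overlaps Alg12 on the opposite strand. By the depth estimate its values stand for 1.76 to 16.97 fragments, with the fewest in HFD replicate 2. Rpt3R reached 0.376% to 1.96% of its standard partner Rpt3.

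**Figure D5:**
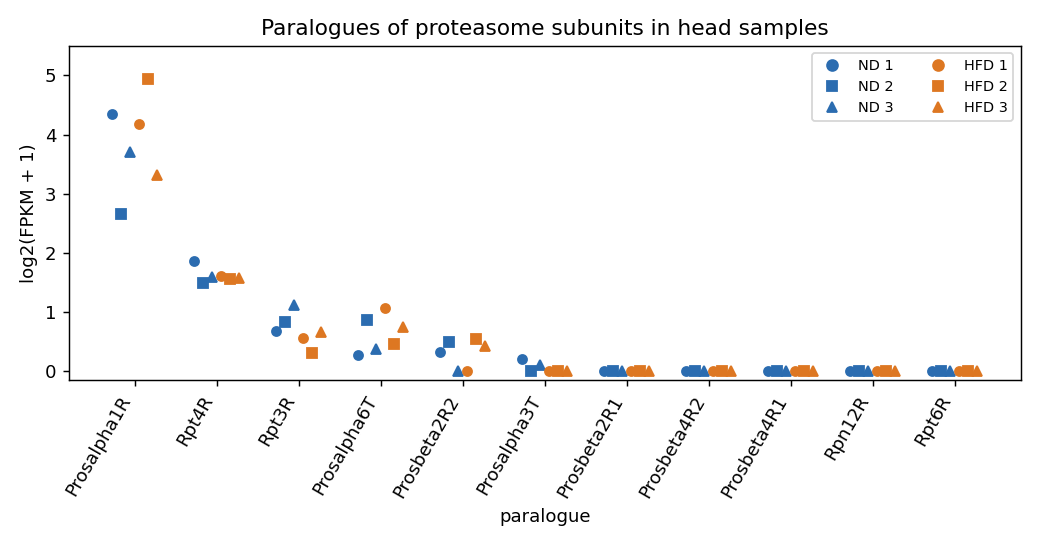
log2(FPKM + 1) of the 11 paralogues, with 1 point per sample (blue for ND, orange for HFD, the shape for the replicate). Prosalpha1R stands well above the others, Rpt4R is at 1.82 to 2.65 FPKM, Rpt3R and Prosalpha6T are near or under 1 FPKM, and 5 paralogues are at 0 in all samples.

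Other genes of the pathway were read from 3 lists, and none of their genes passed the test or had an unadjusted p under 0.05. Among assembly, activation and shuttling genes, 6 of 13 were in the files, namely Pomp, REG, Ubqn, Rad23, Ufd1-like and p47, and all 6 log2 differences were below 0, with a median of -0.074, where 4783 of the 8362 tested genes were below 0. These lists were not recomputed with samples left out. All 5 ubiquitin and E1 genes were in the files, of which 4 were below 0 and 1 above, also with a median of -0.074. The 4 regulators of proteasome genes were all in the files, with 3 differences above 0 and 1 below.

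A few of these genes are given with values, chosen after the values had been seen. Ubqn, a ubiquilin that carries substrates to the proteasome, was the only one of the 15 in which the diets did not overlap, with 62.0, 63.5 and 64.6 FPKM on ND and 61.9, 57.2 and 60.5 FPKM on HFD. All HFD samples lay below all ND samples in 8.07% of all tested genes, so 1 of 15 is near the background. ND replicate 1 and HFD replicate 1 were nearly equal in it. cnc encodes the fly relative of the mammalian Nrf factors, which raise proteasome genes, and was at 72.1, 62.3 and 65.1 FPKM on ND and 40.7, 63.5 and 52.1 FPKM on HFD. Its lowest value was in HFD replicate 1, the sample where the subunits were highest on average. That is 1 library, and a link between cnc and the subunit levels was not tested. The log2 difference of cnc was -0.37 (SE 0.17, adjusted p = 0.794 by limma). Keap1, whose protein restrains that of cnc, was at 4.56, 5.34 and 6.11 FPKM on ND and 7.56, 5.79 and 7.25 FPKM on HFD. The diets overlapped, and its log2 difference was 0.31 (SE 0.14, adjusted p = 0.783 by limma). The remaining regulators of the list, maf-S and Dref, had log2 differences of 0.11 and 0.15, both above 0.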

How the data were processed

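Poly(A) RNA of heads was sequenced on Illumina instruments. The authors mapped reads to the fly genome (HISAT is named in the submitters' processing notes), kept reads with a single mapping place and deposited 1 FPKM value per gene and sample, on 12138 rows with 11922 identifiers. The series description calls the unit RPKM and names an RNA library kit, where the methods name FPKM and a DNA library kit. Aligner version, counting tool, build and annotation are not given in the sources used here. The first row of an identifier was used.

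Diets were compared by limma 3.58.1 (R 4.3.3, lmFit and eBayes with trend) applied to log2(FPKM + 1). Genes averaging 0.5 FPKM or more entered, and p-values were adjusted after Benjamini and Hochberg. The pseudocount shrinks differences of low genes. For single genes, all 20 assignments of samples to diets gave a two-sided exact permutation p. Depth was estimated from 6033 genes with 1 transcript in the BDGP6.54 annotation. Of their low values, 64.1% to 72.0% were no more than 0.15 from a whole number of fragments, where 30% would be so for random values. No count test was therefore made, and errors from fragment numbers cover counting only. The limma step and the depth estimate were tested on simulated data. The simulation for limma drew independent noise for each gene, so it does not cover shifts that genes of a sample share.

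Members and gene lists were chosen with earlier results of these data known. Values in every sample were to be given for the highest and lowest subunit of each sub-complex, the 3 largest and 3 smallest differences, members with an unadjusted p under 0.05 and paralogues averaging at least 0.5 FPKM. Rpt3, Prosalpha3T and the paralogues at 0 were given in every sample outside this rule. Pathway genes outside the family were to be given with values only where they had an unadjusted p under 0.05. Alternatives were a pseudocount of 0.1, no filter or a minimum of 5 FPKM, median-ratio and quantile scaling, eBayes without trend, a replicate block, summed rows, and samples left out. Python 3.11.15 was used for summaries and figures.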

Additional observations from a re-analysis of the deposited data

How the results depend on the processing

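None of the 24 tested proteasome genes had an adjusted or an unadjusted p under 0.05 from limma under any of the 15 alternatives that tested it, and the lowest adjusted p of any of them was 0.5002 (Rpn9 without ND replicate 3). Rpt3R, Rpt4R and Prosalpha6T were tested in 14 of the 15, since they lie under the minimum of 5 FPKM. Of the 24, 11 kept the sign of their log2 difference in the alternatives that tested them and 13 did not. The number of genes above 0 was 14 of 24. It was 18 with median-ratio scaling, and leaving out 1 sample gave 10 (without ND replicate 3 or without HFD replicate 1) to 21 (without HFD replicate 2). The median log2 difference of the standard subunits was between -0.024 and 0.086 when 1 sample was left out, and 0.060 with median-ratio scaling. Of all tested genes, 4 passed the test. This was 1 without a filter on low values, 7 with median-ratio scaling, 7 with ND replicate 3 and HFD replicate 2 both left out, and 1 to 5 with 1 sample left out. The cause was not tested. With the replicate number as a replicate block it was 1. The deviations of same-numbered samples had correlations of 0.31, -0.51 and -0.36. The highest of any pair across the diets was 0.55, for ND replicate 3 and HFD replicate 2, the samples with the least midgut RNA. A shared preparation could be masked by that contrast, so whether the numbers pair samples was not shown. Values under about 1 FPKM rest on few fragments, most of all in HFD replicate 2, and with 3 samples per diet and intervals of this width smaller changes of single subunits could not be detected.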
